A study of Mus musculus with 18 samples.

Results

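Iron handling in the optic nerve head was examined through 8 genes: ceruloplasmin (Cp), Heph, Fth1, Ftl1, Tfrc, Slc40a1, Slc11a2 and Ireb2. They were taken as a named list, found by Ensembl identifier among the 55416 genes of the deposited tables, and the 16 annotated isoforms of Cp were followed as well, among 142434 isoforms. RNA came from mouse optic nerve head, the place where retinal ganglion cell axons leave the eye, cut out of sections by laser capture microdissection, and was read as 18 libraries made from low-input total RNA. The study set B6.EDA+/+ mice beside C57BL/6J mice to ask about age-related optic nerve damage. As background, the EDA+/+ allele forces the extra domain A (EDA) exon into every fibronectin transcript. The libraries formed 4 groups. At 22 months of age there were 3 from B6.EDA+/+ and 5 from C57BL/6J mice, by their labels. At 12 months of age there were 5 from each strain. Libraries of a group are numbered below in deposit order, which pairs none of them. The labels do not say whether each library is a separate animal, so the p-values speak only of library-to-library spread, which can be technical.

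Cells take up iron bound to transferrin through the transferrin receptor (Tfrc) and move it across membranes with the ferrous iron transporter DMT1 (Slc11a2). They store it in ferritin, a shell built of a heavy chain that oxidises iron (Fth1) and a light chain (Ftl1), and release it through ferroportin (Slc40a1). Ceruloplasmin and hephaestin (Heph) are copper-containing ferroxidases that oxidise the iron leaving through ferroportin, and mice lacking both are known to accumulate iron in the retina. Iron regulatory proteins, one of which is encoded by Ireb2, bind a hairpin called the iron-responsive element in ferritin, ferroportin and transferrin receptor transcripts when iron is scarce.

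The iron-responsive elements found by a strict motif are shown because they are the sequences that iron regulatory proteins are known to bind. As background, one 3′ form of Slc11a2 transcripts is also known to carry such an element, and the strict motif had no match in the annotated Slc11a2 regions. The motif searched was a C, any 5 bases, the loop CAGTGN and 5 bases that pair with those before the loop. G-T pairs were allowed and the last loop base was not G. The search covered the transcript strand of annotated untranslated regions in GENCODE M21 (build GRCm38). It found a match in 4 of the 8 members. Capitals mark the bulged C and the loop.
Fth1 5′ UTR: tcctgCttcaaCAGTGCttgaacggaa
Ftl1 5′ UTR: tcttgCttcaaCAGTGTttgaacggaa
Slc40a1 5′ UTR: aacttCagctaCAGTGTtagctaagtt
Tfrc 3′ UTR, site 1: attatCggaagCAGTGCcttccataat
Tfrc 3′ UTR, site 2: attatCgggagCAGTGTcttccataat
Tfrc 3′ UTR, site 3: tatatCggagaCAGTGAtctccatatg
Tfrc 3′ UTR, site 4: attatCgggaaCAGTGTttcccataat

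The Fth1 site lies at chr19:9982733-9982759 on the plus strand, the Ftl1 site at chr7:45459780-45459806 on the minus strand and the Slc40a1 site at chr1:45925466-45925492 on the minus strand. The 4 Tfrc sites lie on the plus strand at chr16:32631220-32631246, chr16:32631599-32631625, chr16:32631664-32631690 and chr16:32631711-32631737. The same motif was found in the 5′ UTR of 23 of 20200 genes (0.114%) and in the 3′ UTR of 100 of 20857 genes (0.479%). Its absence from Cp, Heph, Slc11a2 and Ireb2 says only that these letters are not in those annotated regions. Isoforms that hold the site carried 85.1% to 92.6% of the estimated Fth1 reads and 97.6% to 100% of those of Ftl1. For Tfrc, the site-holding isoform Tfrc-201 took 0% to 100% of the estimated reads with a median of 20.8%, and Tfrc-202, which lacks the sites, had a median of 40.4 reads per library. With so few Tfrc reads, this division between isoforms is a rough estimate.

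Library totals ran from 13097498 to 18488733 expected counts. The 6 astrocyte markers summed to 7250 to 32800 depth-scaled counts (CPM) and all 6 had a median of at least 10 reads. Pigment epithelium markers summed to at most 3.58 CPM, melanocyte markers to at most 1.32 and red blood cell markers to at most 18.7, with Rgr and Tyr at 0 in every library. Oligodendrocyte markers ran from 350 to 28700 CPM and rod and cone markers from 3.49 to 3080 CPM. The share of Fn1 transcripts that hold the EDA exon was 0 in 4 of 8 B6.EDA+/+ and in 5 of 10 C57BL/6J libraries and reached 58.5% and 100%, so the exon did not follow the labels in these estimates. Libraries are therefore called EDA-labelled and control-labelled. Replicate 4 of the EDA-labelled 12-month group stood apart: of 4392 well-expressed genes, 35.1% were lowest there among the 18 libraries and 23.8% were highest. EDA-labelled 22-month replicate 3, 1 of 3 in its group, came next, lowest for 639 of these genes and highest for 689, whereas each of the other 16 was lowest for at most 301 and highest for at most 291. Both are included unless stated. Xist exceeded the Y-linked genes in 5 libraries, 3 of them EDA-labelled, so the sexes were mixed between libraries. These were EDA-labelled 22-month replicate 1, EDA-labelled 12-month replicates 4 and 5, and control-labelled 12-month replicates 1 and 2. The control-labelled 22-month group had none, so sex is partly confounded with label at 22 months and with age in control-labelled libraries.

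Levels of different genes are compared per transcript length, in TPM, which corrects read counts for transcript length and library total. Cp led with a median of 2321 TPM over the 18 libraries and a median rank of 35 among all genes. Ftl1 followed with 408 TPM, Fth1 with 152 and Slc11a2 with 15.4. Slc40a1 had a median of 6.82 TPM, Heph 3.90, Tfrc 3.15 and Ireb2 0.47. Cp exceeded Ftl1 in 17 of 18 libraries, Ftl1 exceeded Fth1 in 16 and Fth1 exceeded Slc11a2 in 18. The order of the scarce members was less settled, since Slc40a1 exceeded Heph in 12 libraries and Heph exceeded Tfrc in 9. All 8 members passed the filter on low counts. Library-to-library spread differed as widely as level: the SD of Ftl1 over the libraries was 0.21 on the log2 CPM scale, and only 0.0529% of the tested genes varied less, whereas that of Slc40a1 was 2.43.

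**Figure D1:**
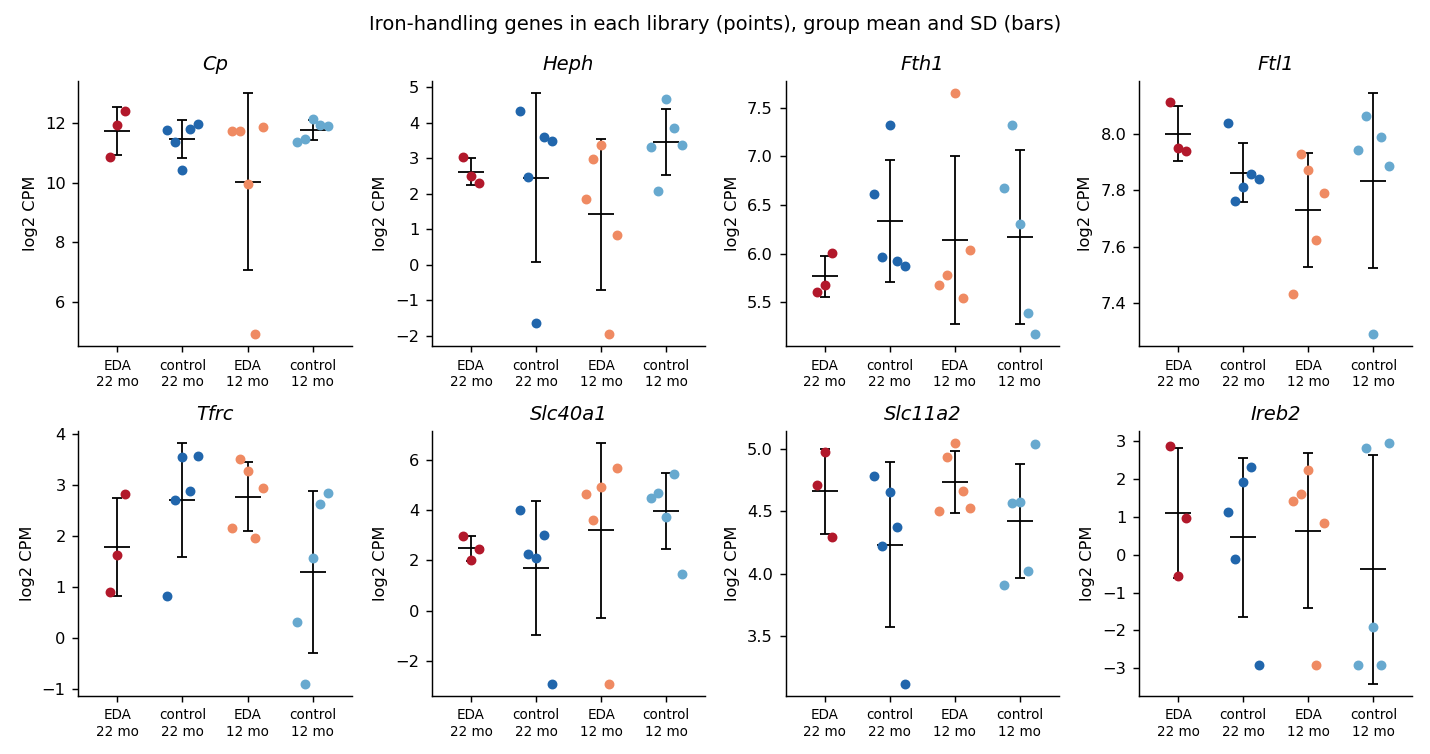
Log2 CPM of each iron-handling gene in the 18 libraries, in panels with their own vertical scale; points are libraries and bars are group means with SD (n = 3, 5, 5 and 5). With all libraries, in the 4 comparisons of 2 groups, the groups overlap for every gene except Ftl1 between the EDA-labelled ages, and Cp has a single point near 5 among the EDA-labelled 12-month libraries.

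Ceruloplasmin oxidises ferrous iron and is the member with the most reads. At 22 months Cp stood at 1855, 3916 and 5431 CPM in EDA-labelled libraries, against 3479, 2649, 1359, 3592 and 3979 CPM in control-labelled libraries. In the 12-month libraries it stood at 3393, 3375, 985, 30.1 and 3755 CPM in EDA-labelled libraries, against 2656, 2848, 4500, 3904 and 3856 CPM in control-labelled libraries. The groups overlapped at both ages. The one very low value, 478 reads in EDA-labelled 12-month replicate 4, lay 32.5-fold under the lowest of the other 17 libraries, on the log2 CPM scale with a prior count. A gap larger than that of Cp was seen for 207 of the 4392 well-expressed genes in that library. The same library had 29490 CPM of the astrocyte filament gene Gfap, against 5350 to 12580 in the others. Astrocyte markers disagreed there: Slc1a3 (2692 CPM) and Pax2 (383 CPM) were also highest, whereas Aqp4 was lowest at 44.94 CPM, against 112.7 to 558.4. The part of such differences in the Cp value was not tested. In a bulk sample, fewer cells of a type and less RNA per cell cannot be told apart.

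Cp did not differ between the labels beyond the spread of the libraries. Its log2 fold change, EDA-labelled over control-labelled, was 0.31 ± 0.74 (SE) at 22 months and -0.62 ± 0.65 at 12 months. In edgeR's quasi-likelihood test with Benjamini-Hochberg adjustment over 15118 genes, the adjusted p was 1 for both. Without EDA-labelled 22-month replicate 3, which had the highest Cp, the 22-month value was -0.059. Without EDA-labelled 12-month replicate 4, the 12-month value was -0.30 ± 0.37. Between ages, 22 months over 12 months, the log2 fold change was 0.69 ± 0.73 in EDA-labelled libraries and -0.24 ± 0.65 in control-labelled ones, and 0.38 ± 0.42 in EDA-labelled libraries without that replicate.

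Cp lies on the plus strand of chromosome 3 from 19957054 to 20009145 in GRCm38. Its full-length coding isoforms end in 2 ways: Cp-202 and Cp-203 end in a last coding segment of 14 nt, whereas Cp-201, Cp-204 and Cp-205 skip to an exon further on with a segment of 89 nt. As background, the longer end carries the signal for a glycosylphosphatidylinositol anchor, which holds ceruloplasmin on the membrane of astrocytes, and the shorter end gives the secreted plasma form. In the 17 libraries other than EDA-labelled 12-month replicate 4, Cp-202 took a median of 46.1% of the estimated Cp reads, Cp-203 24.2% and Cp-201 15.8%. The short retained-intron isoform Cp-216, of 684 nt, took a median of 10.7% of the reads but 43.2% of the Cp TPM. The TPM of the Cp gene therefore includes a large part that is not full-length coding transcript. Summed over the full-length coding isoforms alone, Cp ran from 371 to 1523 TPM in those 17 libraries. The lowest of these, in EDA-labelled 12-month replicate 3, lay below the 441 TPM of Ftl1 there. The median, rank and order of Cp given above use the TPM of the whole gene.

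The anchor-end share of coding Cp TPM varied several-fold between libraries of a group. It is the percent of the TPM of all protein-coding Cp isoforms on those with the longer end. The short coding isoforms Cp-213, Cp-214 and Cp-215 are included, and of these Cp-214 has the longer end. Over full-length isoforms alone it was 57.3% in EDA-labelled 12-month replicate 4 and 3.93% to 32.2% in the others. At 22 months it was 17.2%, 13.4% and 4.32% in EDA-labelled libraries, against 21.8%, 29.8%, 31.97%, 16.6% and 11.1% in control-labelled libraries. Among 12-month libraries it was 17.3%, 17.4%, 30.5%, 50.4% and 6.97% in EDA-labelled libraries, against 11.4%, 23.1%, 11.2%, 9.46% and 22.8% in control-labelled libraries. The groups overlapped at both ages. The share rested on 423 coding reads in EDA-labelled 12-month replicate 4, where Cp-202 was at 0 reads, and on 16820 to 63130 in the others.

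At 22 months EDA-labelled libraries averaged an anchor-end share of 11.6% ± 6.62 (SD, n = 3), against 22.2% ± 8.78 (SD, n = 5) for control-labelled libraries. This is a difference of -10.6 percentage points with an exact two-sided permutation p of 0.179. EDA-labelled libraries of 12 months averaged 24.5% ± 16.7, against 15.6% ± 6.76 for control-labelled ones (SD, n = 5 each), a difference of 8.94 points with an exact permutation p of 0.325. Without EDA-labelled 12-month replicate 4 that difference was 2.47 points. Between ages, 22 minus 12 months, the difference was -12.9 points for EDA-labelled libraries and 6.65 points for control-labelled ones, with exact permutation p of 0.179 and 0.214. Adjusted over these 4 comparisons the values ran from 0.285 to 0.325. The smallest p the design allows is 0.0179 for 3 against 5 libraries.

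**Figure D2:**
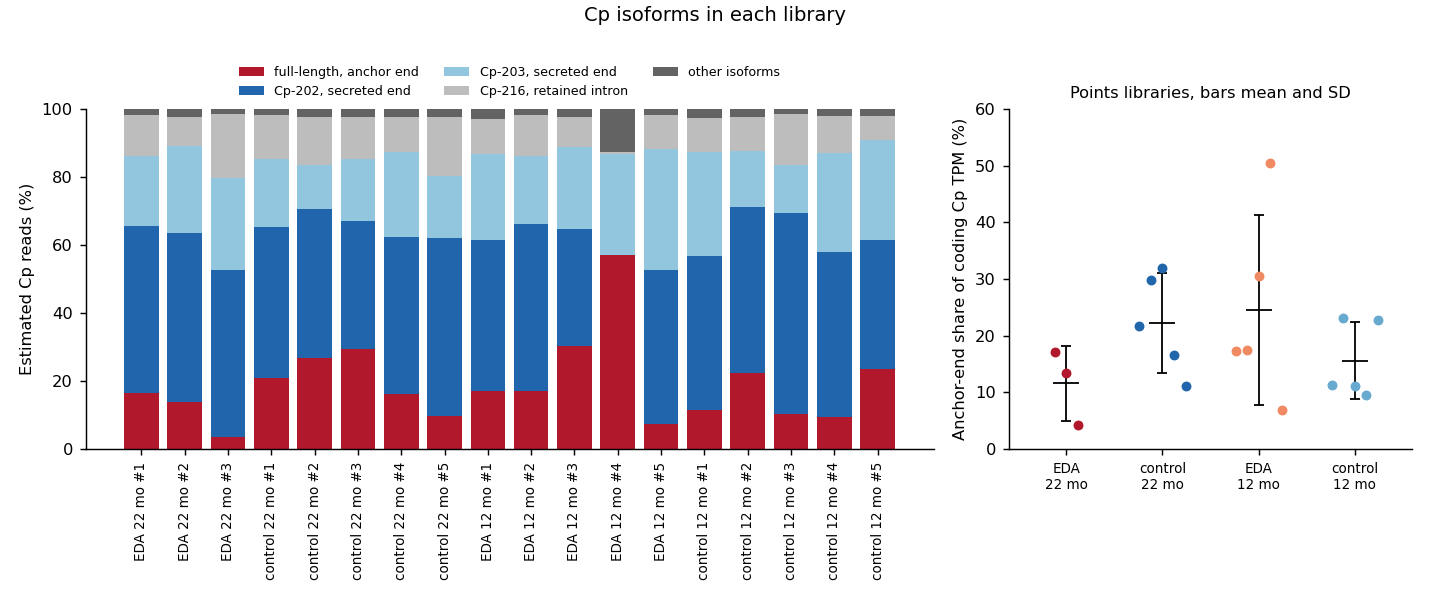
Left, percent of estimated Cp reads on each group of isoforms in every library, as stacked bars. Right, anchor-end share of coding Cp TPM, with points for libraries and bars for group mean and SD. The share includes short coding isoforms, whereas the anchor-end bars at left are full-length only. Secreted-end isoforms take most reads in 17 libraries, and the EDA-labelled 12-month replicate 4 has no Cp-202.

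Hephaestin, the membrane-bound ferroxidase related to ceruloplasmin, was far scarcer, with 2 to 378 reads per library. At 22 months Heph stood at 8.12, 5.50 and 4.83 CPM in EDA-labelled libraries, against 20.1, 5.42, 0.188, 11.9 and 11.1 CPM in control-labelled libraries. Heph at 12 months stood at 3.46, 7.80, 10.3, 0.126 and 1.66 CPM in EDA-labelled libraries, against 9.88, 4.07, 25.0, 14.3 and 10.2 CPM in control-labelled libraries. The EDA-labelled values lay mostly in the lower part of the range at 12 months, but the groups overlapped. The log2 fold change was -0.66 ± 1.05 (SE) at 22 months and -1.44 ± 0.90 at 12 months. The 12-month value had an unadjusted p of 0.125 and an adjusted p of 1 in edgeR. At 22 months mean log2 CPM was 2.617 for EDA-labelled libraries and 2.452 for control-labelled ones, so the fitted value, which weighs counts, and the mean of log values differed in sign.

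The ferritin chains differed in their spread across libraries. Ftl1 was steady: at 22 months it stood at 277, 247 and 245 CPM in EDA-labelled libraries, against 263, 217, 224, 232 and 229 CPM in control-labelled libraries. At 12 months Ftl1 stood at 173, 243, 234, 197 and 221 CPM in EDA-labelled libraries, against 246, 267, 156, 254 and 236 CPM in control-labelled libraries. The highest library was 1.77-fold above the lowest. Ftl1 fold changes were the most precise of the members, at 0.14 ± 0.25 (SE, log2) at 22 months and -0.12 ± 0.22 at 12 months. Between the EDA-labelled ages, Ftl1 was the one member whose groups did not overlap, with 22 months above 12 months and a log2 fold change of 0.26 ± 0.25. That fold change had an adjusted p of 1 in edgeR, and 4% of all tested genes did not overlap between these groups.

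Fth1 varied 5.58-fold. At 22 months it stood at 48.7, 51.2 and 64.2 CPM in EDA-labelled libraries, against 97.6, 62.6, 159.9, 60.4 and 58.6 CPM in control-labelled libraries. At 12 months Fth1 stood at 51.2, 54.9, 200.9, 46.7 and 65.6 CPM in EDA-labelled libraries, against 102, 160.0, 79.1, 41.8 and 35.99 CPM in control-labelled libraries. The highest values were EDA-labelled 12-month replicate 3, control-labelled 12-month replicate 2 and control-labelled 22-month replicate 3. Its log2 fold change between labels was -0.68 ± 0.54 (SE) at 22 months and 0.0021 ± 0.46 at 12 months, with an adjusted p of 1 for both in edgeR. The Fth1 to Ftl1 ratio in TPM ran from 0.216 to 1.20 and exceeded 1 in control-labelled 22-month replicate 3 and EDA-labelled 12-month replicate 3.

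The 3 libraries with the most Fth1 were also the 3 with the most oligodendrocyte marker RNA. Oligodendrocytes make the myelin sheath behind the optic nerve head and are known as iron-rich cells. The summed markers stood at 26530 CPM in EDA-labelled 12-month replicate 3, 28650 CPM in control-labelled 22-month replicate 3 and 9389 CPM in control-labelled 12-month replicate 2. This relation was chosen after the values were seen and computed for all 8 members, so its p-values do not allow for that choice. The share of all tested genes that follow the markers is not given here, so the relation is not shown to be particular to Fth1. For Fth1, Pearson's r over the 18 libraries was 0.87 (permutation p = 2e-05, adjusted over 8 relations 0.00016) and Spearman's rho was 0.79 (permutation p = 0.0002, adjusted 0.0016). With values taken less their group means, r was 0.90 with a permutation p of 1e-05, the smallest that 100000 permutations give, and an adjusted p of 8e-05. Without the 2 libraries farthest from the median of the markers, r was 0.76 over 16 libraries.

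None of the other 7 members had an adjusted p under 0.05 in that family, and Ftl1 had r = 0.07 with a permutation p of 0.77. For Cp r was -0.21 over all libraries (permutation p = 0.393) and -0.68 without EDA-labelled 12-month replicate 4, for which no p-value was computed. With that replicate kept but without the 2 libraries farthest from the median of the markers, r was -0.085. Those 2 libraries had the most marker RNA and the lowest Cp after replicate 4, at 9.94 and 10.41 log2 CPM. With the oligodendrocyte markers as a covariate, the Fth1 log2 fold change was -0.45 ± 0.33 (SE) at 22 months and -0.28 ± 0.28 at 12 months, with adjusted p of 1 in edgeR. Its standard error was smaller at both ages than without the covariate. Because the markers were chosen after Fth1 was seen to follow them in these libraries, that decrease was fixed by the choice and is no separate result.

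**Figure D3:**
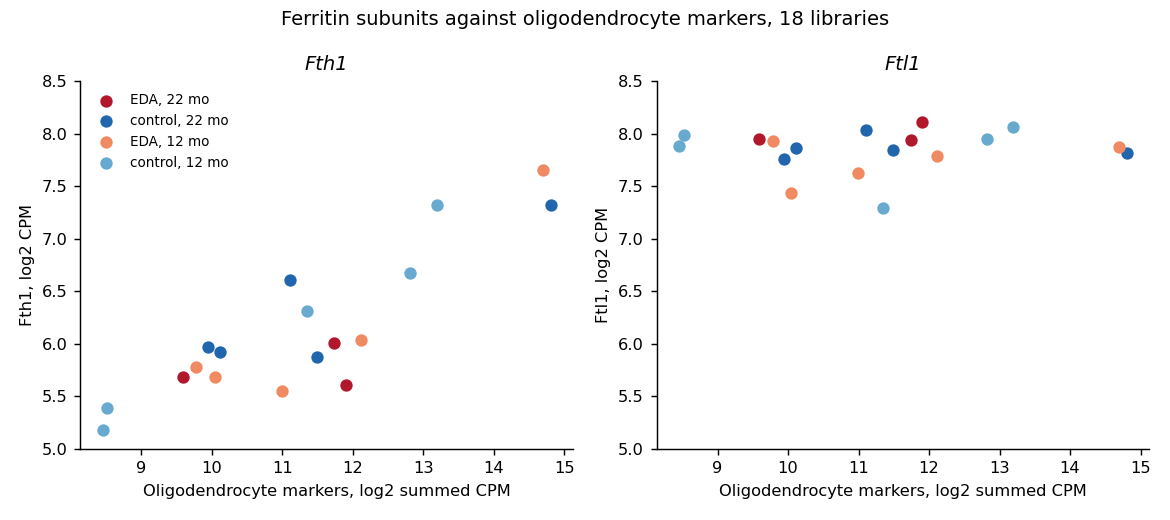
Log2 CPM of Fth1 (left) and Ftl1 (right) against the log2 summed CPM of 6 oligodendrocyte markers; each point is a library, coloured by label and age. Fth1 climbs with the markers (r = 0.87) and Ftl1 does not (r = 0.07).

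Reads of the ferritin genes can be shared with near-identical copies. Copies were sought only by symbols that begin with Ftl1-ps, Ftl2, Fth-ps, Fth1-ps or Fthl17, so copies under other names are not covered. Of 14 found, 3 had reads, and Ftl1-ps1 took 1.29% to 3.67% of the reads it shared out with Ftl1. The Fth1 copies so named and the Fthl17 family were at 0 in all libraries.

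The uptake genes differed in abundance. Tfrc, the transferrin receptor, had 5 to 186 reads per library. At 22 months it stood at 1.76, 2.96 and 6.94 CPM in EDA-labelled libraries, against 1.65, 6.46, 11.7, 7.24 and 11.8 CPM in control-labelled libraries. At 12 months Tfrc stood at 4.37, 11.3, 9.55, 3.78 and 7.56 CPM in EDA-labelled libraries, against 1.11, 0.407, 2.85, 6.06 and 7.11 CPM in control-labelled libraries. The EDA-labelled mean was below the control-labelled mean at 22 months and above it at 12 months, and the groups overlapped at both ages.

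The Tfrc log2 fold change was -0.999 ± 0.90 (SE) at 22 months and 1.06 ± 0.76 at 12 months. The difference between these, tested as an interaction, was -2.06 ± 1.18 with an unadjusted p of 0.0962 and an adjusted p of 1.00 in edgeR. In limma with sample quality weights the unadjusted p was 0.0233 for the interaction and 0.0478 for the label difference at 12 months, and no member passed adjustment there either. Without EDA-labelled 22-month replicate 3 the edgeR interaction had an unadjusted p of 0.0472.

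Slc11a2, the DMT1 transporter, had 115 to 633 reads and was the steadiest member after Ftl1. At 22 months it stood at 26.1, 31.3 and 19.5 CPM in EDA-labelled libraries, against 27.5, 18.5, 25.1, 20.6 and 8.53 CPM in control-labelled libraries. Among 12-month libraries Slc11a2 stood at 22.5, 30.5, 33.03, 25.3 and 22.9 CPM in EDA-labelled libraries, against 14.9, 23.5, 23.7, 16.1 and 32.7 CPM in control-labelled libraries. The log2 fold change was 0.35 ± 0.41 (SE) at 22 months and 0.27 ± 0.36 at 12 months, both smaller than their standard errors.

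Ferroportin, the exporter encoded by Slc40a1, was the member with the widest spread. At 22 months Slc40a1 stood at 7.76, 3.85 and 5.36 CPM in EDA-labelled libraries, against 15.98, 4.63, 4.14, 7.96 and 0 CPM in control-labelled libraries. Slc40a1 at 12 months stood at 24.4, 12.1, 30.3, 0 and 50.9 CPM in EDA-labelled libraries, against 22.3, 25.2, 13.1, 42.4 and 2.62 CPM in control-labelled libraries. The 2 libraries at 0 are control-labelled 22-month replicate 5, where a count of 0 allows up to 0.222 CPM, and EDA-labelled 12-month replicate 4, where it allows up to 0.189 CPM. These limits cover counting error only, because reads after amplification are not independent molecules.

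Between labels the Slc40a1 log2 fold change was -0.21 ± 1.22 (SE) at 22 months and 0.16 ± 1.05 at 12 months. Between ages it was lower at 22 than at 12 months by the fitted value, at -2.06 ± 1.32 for EDA-labelled libraries and -1.69 ± 1.08 for control-labelled ones. Neither passed, with unadjusted p of 0.136 and 0.132 and adjusted p of 0.988 and 1 in edgeR. Without EDA-labelled 12-month replicate 4 the values were -2.38 ± 1.06 for EDA-labelled libraries and -1.69 ± 0.83 for control-labelled ones, with unadjusted p of 0.0372 and 0.0563 and adjusted p of 0.813 and 1. With all libraries the ages overlapped within each label. In the EDA-labelled libraries that overlap rested on the 0 of replicate 4: without it, Slc40a1 stood at 3.85 to 7.76 CPM at 22 months and at 12.1 to 50.9 CPM at 12 months, and the ages did not overlap. Without that replicate 2 of 8 members, Ftl1 and Slc40a1, did not overlap between these ages, beside 7.06% of all genes, and 0 members between labels at 12 months, beside 1.91%.

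Ireb2, which encodes iron regulatory protein 2, was near the detection limit. At 22 months it stood at 7.28, 0.550 and 1.84 CPM in EDA-labelled libraries, against 2.05, 0.786, 3.64, 4.85 and 0 CPM in control-labelled libraries. At 12 months it stood at 2.54, 2.89, 4.59, 0 and 1.66 CPM in EDA-labelled libraries, against 0, 7.01, 0.132, 0 and 7.67 CPM in control-labelled libraries. Ireb2 was at 0 in 4 of 18 libraries, where a count of 0 allows up to 0.162 to 0.222 CPM. Its log2 fold change was 0.51 ± 1.73 (SE) at 22 months and -0.34 ± 1.52 at 12 months, both smaller in size than their standard errors.

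**Figure D4:**
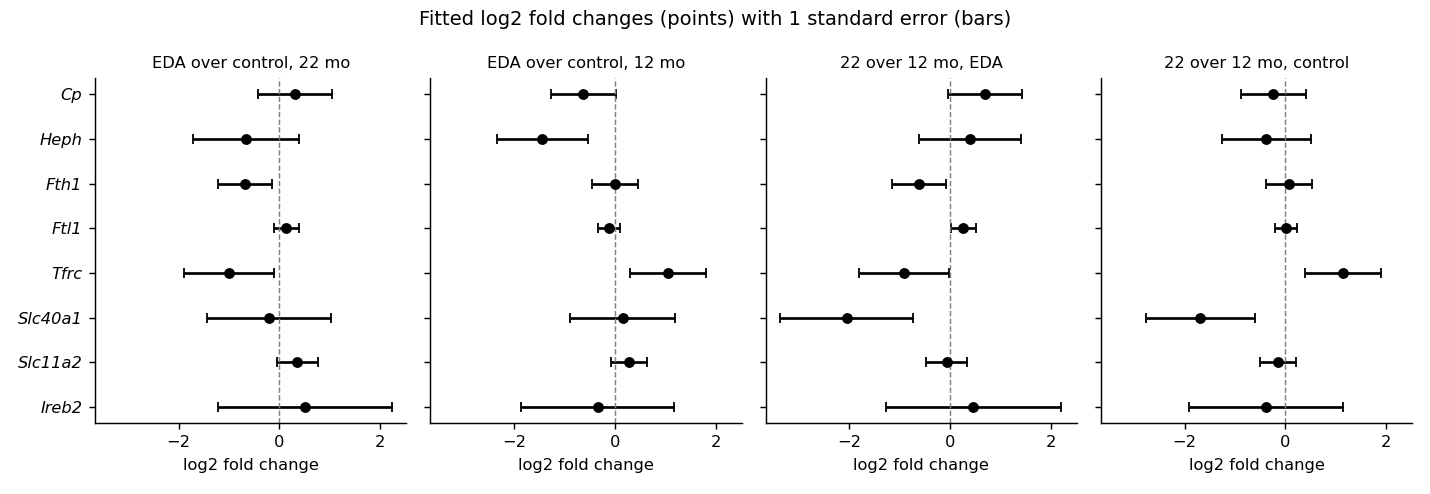
Fitted log2 fold changes of the 8 genes with 1 standard error, for EDA-labelled over control-labelled libraries at each age and for 22 over 12 months within each label. Standard errors are smallest for Ftl1 and largest for Ireb2, and no value lies more than 2 standard errors from 0.

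Counted together, 0 of 8 members passed an adjusted p of 0.05 in any of the 5 comparisons, where 0% of 15118 tested genes passed in edgeR. At an unadjusted p under 0.05, 0 of 8 members were found in each comparison, beside 3.96% of all genes for the label difference at 22 months, 4.56% at 12 months, 4.98% between EDA-labelled ages, 3.51% between control-labelled ages and 4.02% for the interaction. DESeq2 called 34 genes at 22 months (0.227%) and 22 at 12 months (0.15%), 41 between EDA-labelled ages (0.274%), 23 between control-labelled ages (0.154%) and 32 for the interaction (0.214%), and no member among them. Limma with quality weights called 1 gene at 22 months (0.00661%), 2 at 12 months (0.0132%), 1 for the interaction (0.00661%) and 0 between ages, again with no member. Groups did not overlap for 0 of 8 members at 22 months, beside 2.75% of all genes, for 0 at 12 months, beside 1.26%, and for 0 between control-labelled ages, beside 0.556%. At 22 months 4 members were above 0 and 4 below, with 46% of all genes above 0, and at 12 months the counts were 4 and 4, with 49.5%. Between ages 4 members were above 0 in EDA-labelled libraries, with 46.9% of all genes, and 3 in control-labelled ones, with 51.6%, and 5 were above 0 for the interaction, with 47.2%. The fitted fold change and the difference of mean log2 CPM had opposite signs in 6 of the 32 member comparisons of 2 groups, and 0 of these 6 exceeded 1 standard error. They were Heph at 22 months, Slc40a1 between labels at both ages, Fth1 and Ireb2 between labels at 12 months, and Ireb2 between control-labelled ages. The comparisons at the 2 ages use separate control libraries, whereas the age comparisons reuse the same libraries as the label comparisons.

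The wider iron pathway was described through 66 other genes of uptake, transport, storage, export, sensing, haem handling, iron-sulphur assembly and lipid peroxide defence, of which 57 were tested. None passed an adjusted p of 0.05 in edgeR. Between labels at 22 months 33 lay above 0 (57.9%, beside 46% of all genes), and their median log2 fold change was 0.22 beside -0.07. Without EDA-labelled 22-month replicate 1 that median was -0.003. An unadjusted p under 0.05 was found for 4 (7.02%, beside 3.96%). At 12 months 26 lay above 0 (45.6%, beside 49.5%), the median was -0.14 beside -0.01, and 6 had an unadjusted p under 0.05 (10.5%, beside 4.56%). Such a p was found for 4 between EDA-labelled ages (7.02%, beside 4.98%), for 2 between control-labelled ages (3.51%, the same share as of all genes) and for 5 for the interaction (8.77%, beside 4.02%). By role, the genes above 0 at 22 months and at 12 months were 5 and 5 of 8 for plasma and receptor-mediated uptake, 4 and 6 of 8 for other import and transport, 4 and 4 of 5 for storage, and 0 and 0 of 3 for export. They were 5 and 1 of 8 for iron regulatory sensing, 6 and 4 of 10 for haem handling, 5 and 2 of 7 for iron-sulphur assembly, and 4 and 4 of 8 for lipid peroxide defence. These counts are a description, and no role was tested.

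The 4 pathway genes with the smallest unadjusted p at 22 months were Slc39a8, Bola2, Nqo1 and Alad, with adjusted p of 1 in edgeR. Alad, an enzyme of haem synthesis, had a median of 13.9 CPM in EDA-labelled libraries and 12.4 CPM in control-labelled ones and a log2 fold change of 1.36 ± 0.61 (SE), which was 0.13 without EDA-labelled 22-month replicate 3. Bola2, a partner in cytosolic iron delivery, had medians of 17.1 and 12.5 CPM and a log2 fold change of 1.26 ± 0.54, which was 0.13 without that replicate. Slc39a8, a metal importer of the ZIP family, had 2 reads over the 3 EDA-labelled and 201 over the 5 control-labelled libraries. In the control-labelled libraries it ran from 0 to 8.5 CPM with a median of 1.615 CPM. Nqo1, a quinone reductase, had 11 and 0 reads. Its EDA-labelled values ran from 0 to 0.69 CPM with a median of 0.088 CPM. For both genes the highest library lay well above the median, so these sums lean on single libraries.

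At 12 months the 4 genes were Slc39a8, Lcn2, Slc7a11 and Gclm, again with adjusted p of 1 in edgeR. Gclm, a subunit of the enzyme that limits glutathione synthesis, ran from 162 to 399 CPM in EDA-labelled and from 128 to 183 CPM in control-labelled libraries, with a log2 fold change of 0.62 ± 0.26 (SE), and 0.36 without EDA-labelled 12-month replicate 4. Slc7a11, the cystine importer, had medians of 6.68 and 9.80 CPM and a log2 fold change of -2.19 ± 0.88, which was -0.25 without control-labelled 12-month replicate 5, where it reached 140.3 CPM. Slc39a8 had 3 reads over the EDA-labelled and 110 over the control-labelled libraries, where its median was 0.65 CPM and its highest value 3.94 CPM. Lcn2, which binds iron-loaded siderophores, had 117 and 4 reads. Its EDA-labelled median was 0.57 CPM and its highest value 4.98 CPM, so these sums too lean on single libraries.

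The genes whose levels followed Cp most closely were found among 4392 genes with a mean log2 CPM of at least 4. Over all 18 libraries Pearson's r was 0.98 for Pla2g5, 0.97 for Aif1l and Dpysl3, and 0.96 for Cbfa2t2, Cyp2d22 and Cers4. With values less their group means the leading 6 were Pla2g5, Aif1l, Cers4, Dpysl3, Cbfa2t2 and Pan3, at 0.96 to 0.98. All of these genes were also lowest in EDA-labelled 12-month replicate 4, as for Pla2g5 at 3.73 CPM there and 48.8 to 279 CPM in the others. Without that library r was 0.93 for Pla2g5 and 0.85 for Aif1l, and 0.70 to 0.76 for the other 4. These values describe likeness over libraries that share depth and composition, and the genes were picked for it.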

How the data were processed

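The deposited tables hold the authors' expected counts and TPM per gene and isoform. Per the labels' protocols, cDNA was made with the SMART-Seq v4 kit, sequencing libraries with Nextera XT, an unstranded kit, and STAR alignments were passed to RSEM. Per the submitters' processing notes the build was GRCm39. For tool versions and annotation, the sources used here give nothing. Because RSEM splits reads shared by isoforms or near-identical genes, isoform values are estimates.

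Identifiers were given symbols from GENCODE M21 (52083 of 55416), whose GRCm38 coordinates served only as annotation. Of gene values 3.59% were not whole, and expected counts were rounded. After filterByExpr and TMM scaling, edgeR 4.0.16 fitted a quasi-likelihood model with a mean per group to all 18 libraries. The 5 contrasts were tested two-sided with Benjamini-Hochberg adjustment over 15118 genes at 0.05, with steps tested on simulated data. CPM are TMM-scaled, and log2 CPM use a prior count of 2. A count of 0 was given a limit of 3 counts. The Cp share used libraries with at least 10 coding Cp reads and an exact permutation test in scipy 1.17.1. DESeq2 1.42.0 and limma 3.58.1 were alternatives. Libraries within each group all differed by more than sampling noise (lowest chi-square per degree of freedom 39.1 over 33 pairs).

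Named were the 8 members, the 4 other iron genes with the smallest unadjusted p per label comparison, and the 6 genes most correlated with Cp by each measure. The members and lists were chosen with earlier results of these data known.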

Additional observations from a re-analysis of the deposited data

Results flagged for a closer look

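In groups of 5 libraries, 6 of the 27 sets of values examined (log2 CPM of each member and the anchor-end share of Cp) held a library far from the other 4. Chance gives about 1 in 20 only for independent sets of normally distributed values. These sets share libraries, and the prior count places a library at 0 reads, so the 6 cannot be read against that rate. In the EDA-labelled 12-month group, replicate 4 had a Cp level of 4.92 log2 CPM, against 9.94 to 11.87 in the other 4 libraries. The same replicate had Slc40a1 at -2.90 log2 CPM, which is the value of 0 reads with the prior count, against 3.61 to 5.67, and Ireb2 at -2.90, against 0.85 to 2.24. Replicate 3 of that group had Fth1 at 7.65 log2 CPM, against 5.55 to 6.04. In the control-labelled 22-month group, replicate 5 had Slc40a1 at -2.90 log2 CPM, against 2.09 to 4.01. In the control-labelled 12-month group, replicate 3 had Ftl1 at 7.29 log2 CPM, against 7.88 to 8.06.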

How the results depend on the processing

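No paired analysis was possible because the labels carry no replicate numbers. Over 1032 recomputed values of the 40 member results, no member passed an adjusted p of 0.05, with a lowest adjusted p of 0.54. The count of genes past the threshold, 0 in edgeR, was 34 and 1 for the label difference at 22 months with DESeq2 and with limma with quality weights, 22 and 2 at 12 months, and 32 and 1 for the interaction. Between ages DESeq2 gave 41 for EDA-labelled libraries and 23 for control-labelled ones. With one library left out the count at 12 months was 0 to 1, and the 1 came without EDA-labelled 12-month replicate 4.

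Of the member values, 51 turned sign, and the cause was not tested. With quality weights the log2 fold change between labels at 22 months was -0.0052 for Cp, 0.49 for Heph and 0.23 for Slc40a1, and at 12 months 2.45 for Ireb2. Between ages it was then -0.041 for Ftl1 and 2.23 for Ireb2 in control-labelled libraries, 0.029 for Slc11a2 and -0.13 for Ireb2 in EDA-labelled libraries, and the interaction was -2.36 for Ireb2. The gene ENSMUSG00000119584 took 3.26% to 32.85% of the counts of a library. At 22 months it took 4.82% to 17.27% in EDA-labelled libraries, against 10.72% to 32.85% in control-labelled ones. With its share as a covariate, Slc40a1 was 0.024 at 22 months and Ireb2 3.22 at 12 months, and between control-labelled ages Ftl1 was -0.00084 and Ireb2 1.48. With the sign kept, that covariate moved 12 of 40 member values by over 1.5 times, among them Ireb2 at 22 months to 3.78 and Slc11a2 to 0.79 at 22 and 0.61 at 12 months, and quality weights moved 15. Over all settings other than single left-out libraries, 48 of 312 values moved that far. Fth1 between labels at 12 months was -0.0054 with DESeq2, -0.0054 with RLE scaling, -0.0081 with the 2 groups alone and -0.28 with oligodendrocyte markers as a covariate, an alternative chosen after seeing the data. With that covariate Fth1 between control-labelled ages was -0.016. With Xist-high libraries marked by a covariate, also added after seeing the data, Heph at 22 months was 0.082.

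Leaving out one library at a time gave these ranges where the sign turned. Between labels at 22 months Cp ran from -0.059 to 0.63, Slc40a1 from -0.53 to 0.43 and Ireb2 from -0.921 to 1.006. At 12 months Fth1 ran from -0.62 to 0.37, Slc40a1 from -0.34 to 0.58 and Ireb2 from -0.73 to 0.396. Between EDA-labelled ages Fth1 ran from -0.77 to 0.0032, Slc11a2 from -0.24 to 0.096 and Ireb2 from -0.97 to 0.96. Between control-labelled ages Heph ran from -0.83 to 0.032, Fth1 from -0.26 to 0.44, Ftl1 from -0.11 to 0.062, Slc11a2 from -0.29 to 0.047 and Ireb2 from -0.865 to 0.35. The interaction ran from -0.78 to 0.28 for Slc40a1, from -0.11 to 0.245 for Slc11a2 and from -0.58 to 1.346 for Ireb2. With the sign kept, leaving out 1 library moved 31 of the 40 member results by over 1.5 times. At 22 months Fth1 ran from -0.81 to -0.35 (without control-labelled replicate 3), Heph from -0.98 to -0.22 (without control-labelled replicate 1) and Tfrc from -0.65 to -1.71 (without EDA-labelled replicate 3). The age difference in the anchor-end share in EDA-labelled libraries ran from -17.3 to -6.42 points. The difference in the anchor-end share of Cp kept its sign and missed 0.05 under every alternative tried. Read counts were low for Heph (2 to 378), Tfrc (5 to 186) and Ireb2 (0 to 120), and the SD of Slc40a1 over libraries was 2.43 on the log2 scale. The part of read number in the standard errors was not tested. Only 3 libraries make up the EDA-labelled 22-month group.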

Other observations

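A further 3 iron genes were abundant in this tissue, and were picked after their values were seen. Hfe, whose protein binds the transferrin receptor, had a median of 320 TPM, and its level was 401 to 1914 CPM in 17 libraries and 4.66 CPM in EDA-labelled 12-month replicate 4. Ncoa4, which carries ferritin to the lysosome, had a median of 417 TPM and ran from 390 to 2133 CPM. Trf, which encodes transferrin, had a median of 189 TPM, and its highest values, 539 and 436 CPM, were in control-labelled 22-month replicate 3 and EDA-labelled 12-month replicate 3, the libraries with the most oligodendrocyte marker RNA. The hepcidin gene Hamp and the mitochondrial ferritin gene Ftmt were at 0 reads in all 18 libraries, where a count of 0 allows up to 0.157 to 0.264 CPM. Gpx4, which reduces lipid peroxides, had a median of 5.42 TPM (2.59 CPM), between the median TPM of Slc40a1 and Heph.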
